A study of Mus musculus with 6 samples.

Results

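The Toll-like receptor genes Tlr1, Tlr2, Tlr3, Tlr4, Tlr6, Tlr7, Tlr8, Tlr9 and Tlr13 were examined together with Unc93b1, whose product carries the endosomal receptors out of the endoplasmic reticulum. These 10 genes were chosen by name from the 26181 genes of a table of normalised read counts, and all 10 were among the 15819 genes abundant enough to be tested. By the known site of their proteins, 4 are surface receptors (Tlr1, Tlr2, Tlr4, Tlr6), 5 are endosomal receptors (Tlr3, Tlr7, Tlr8, Tlr9, Tlr13) and 1 is the chaperone. RNA was sequenced from primary CD8+ T cells of the spleen of wild-type C57BL/6 mice. From an age of 6 weeks the mice ate for 7 weeks either ND, a diet the labels give only by these letters, or CDAHFD, the common abbreviation of a choline-deficient, amino acid-defined diet rich in fat that is used to model steatohepatitis. There were 3 libraries per diet. The purity of the cells and the number of animals behind each library are not given in the sources used here. Therefore p-values measure the spread between these libraries, which may be technical.

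Toll-like receptors are membrane proteins of the innate immune system that bind molecules typical of microbes, or of damaged cells, through an outer domain of leucine-rich repeats. Surface receptors mainly detect lipids and lipoproteins of bacteria, whereas endosomal receptors detect nucleic acids once these have been taken up. Both kinds signal through an inner TIR domain that recruits adaptors such as Myd88, which leads to NF-kB and interferon regulatory factors. In the spleen they are best known from macrophages, dendritic cells and B cells.

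Values are normalised counts, that is, reads per gene divided by 1 factor per library. Log2 fold changes (CDAHFD over ND) are on the log2(normalised count + 1) scale, and a gene is said to have risen or fallen where the limma adjusted p was under 0.05. In bulk libraries, fewer cells of a type and less RNA per cell cannot be told apart. The libraries held 25314988 to 28067393 reads in genes, and the 10 genes had between 110 and 7334 reads in a library.

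Of the 10 genes, 8 rose and 2 fell with CDAHFD. The background was high, since 47.1% of all tested genes changed, 24.6% being higher and 22.5% lower. The 3 values of one diet lay wholly apart from the 3 of the other for all 10 genes, against 54.3% of all tested genes. The median log2 fold change of the 10 genes was 0.88, beside -0.01 over all genes tested. The rises were unequal, from 11.8-fold for Tlr8 to 1.19-fold for Tlr9. Each class of receptor chosen held large rises and 1 fall, so that the site of the protein did not divide the genes that rose from those that fell.

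**Figure D1:**
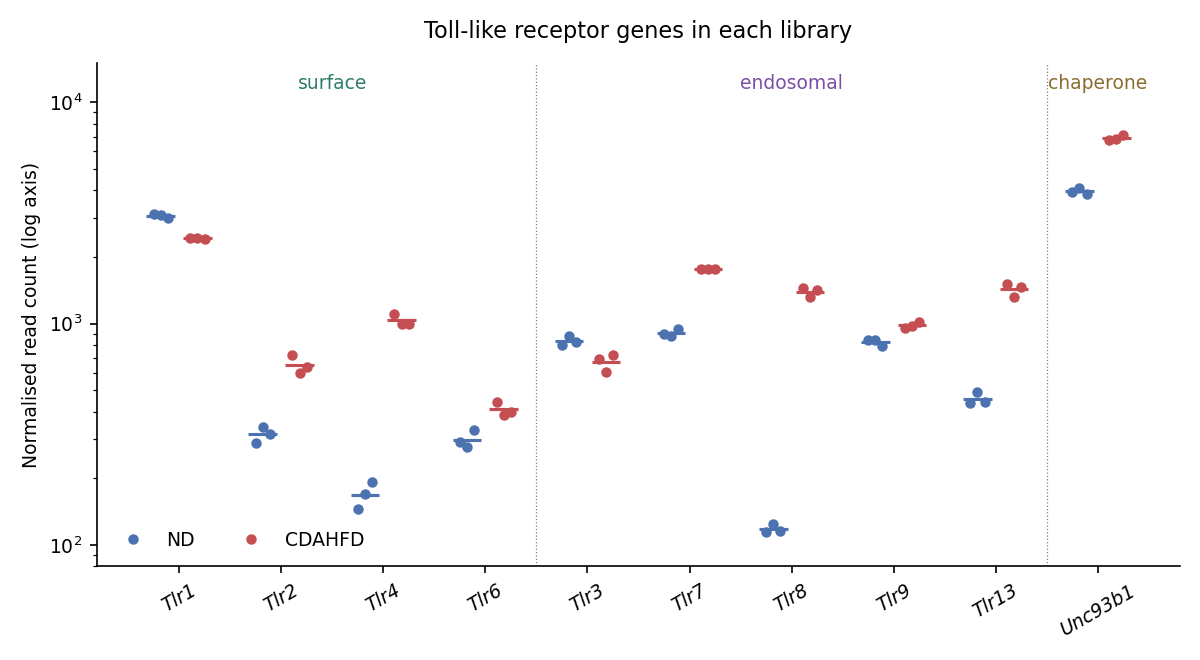
Normalised read counts (log axis) of the 10 genes in each of the 3 ND libraries (blue) and 3 CDAHFD libraries (red), with a bar at each group's mean. The diets do not overlap for any of the 10 genes, and Tlr8 and Tlr4 show the widest gaps while Tlr1 and Tlr3 lie lower in CDAHFD libraries.

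Among the surface receptors, Tlr4, Tlr2 and Tlr6 rose and Tlr1 fell. Tlr4, the receptor for bacterial lipopolysaccharide (chromosome 4, 66827584 to 66930284 in GRCm38, plus strand), had 145, 169 and 192 normalised counts in ND libraries 1 to 3, and 1109, 993 and 998 in CDAHFD libraries 1 to 3. Every CDAHFD library held more than 5 times the highest ND value. The means were 169 ± 23.7 and 1034 ± 65.5 (SD, n = 3 per diet), with a log2 fold change of 2.61 and SE 0.09 (limma adjusted p = 5.02e-19). Of all tested genes, 97.8% had a lower log2 fold change than Tlr4.

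Tlr2, which detects lipoproteins as a pair with Tlr1 or Tlr6 (chromosome 3, 83836272 to 83841767, minus strand), had 289.8, 343 and 319 normalised counts in ND and 722, 599 and 636 in CDAHFD libraries. The lowest CDAHFD library was thus well above the highest ND library. The mean went from 317 ± 26.6 to 653 ± 63 (log2 fold change 1.04 with SE 0.09, limma adjusted p = 3.15e-11), and 90.9% of tested genes had a lower log2 fold change.

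The partners of Tlr2 moved in opposite directions. Tlr1 (chromosome 5, 64924679 to 64933563, minus strand) had 3134, 3092 and 2992 normalised counts in ND and 2445, 2441 and 2408 in CDAHFD libraries. All 3 CDAHFD libraries were below every ND library. The mean fell from 3073 ± 72.5 to 2431 ± 20.2 (log2 fold change -0.34 with SE 0.04, limma adjusted p = 1.45e-07). Tlr6 (chromosome 5, 64952031 to 64960097, minus strand) had 291, 277 and 330.0 in ND against 444, 387 and 398 in CDAHFD libraries. Its diets came closer to each other than those of the other rising surface receptors. The mean rose from 299 ± 27.7 to 409.7 ± 30.2 (log2 fold change 0.45 with SE 0.09, limma adjusted p = 1.46e-04).

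Tlr1 and Tlr6 are neighbours and close paralogues, so reads from the stretches they share may not be assigned with certainty. Among all 66 pairs of 12 receptor genes, including the 3 described further on, this was the only pair with any identical stretch of 50 coding bases, and such stretches covered 31.4% of the coding sequence of Tlr1 and 30.9% of that of Tlr6. No other pair shared a run above 16 bases. The longest identical run, 229 coding bases, lies at chr5:64925537-64925765 in Tlr1 and chr5:64953828-64954056 in Tlr6 (GRCm38, minus strand, GENCODE transcripts). The run is identical throughout, so no letter is capitalised, and it is shown because reads that fall inside it match both genes equally, although the genes differed in direction.

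Tlr1 and Tlr6: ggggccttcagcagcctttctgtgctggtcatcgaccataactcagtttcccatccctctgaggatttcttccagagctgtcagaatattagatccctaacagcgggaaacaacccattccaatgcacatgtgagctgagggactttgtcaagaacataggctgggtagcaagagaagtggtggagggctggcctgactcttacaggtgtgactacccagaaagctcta

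How the authors assigned reads in such runs is not given in the sources used here. Their part in the values of Tlr6, the scarcer of the pair in all 6 libraries, was not tested.

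Among the endosomal receptors, Tlr8, Tlr13, Tlr7 and Tlr9 rose and Tlr3 fell. Tlr8, a receptor for products of RNA breakdown (chromosome X, 167242696 to 167264329, minus strand), had 115, 124 and 116 normalised counts in ND and 1447, 1325 and 1414 in CDAHFD libraries. It was the lowest of the 10 genes in ND libraries by count. Its mean rose 11.8-fold, from 118 ± 5.33 to 1396 ± 63.3 (log2 fold change 3.55 with SE 0.08, limma adjusted p = 3.42e-24), and 99.4% of tested genes had a lower log2 fold change.

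Tlr7, which recognises single-stranded RNA and lies beside Tlr8 (chromosome X, 167304929 to 167330558, minus strand), had 902, 883 and 948 normalised counts in ND and 1764, 1764 and 1763 in CDAHFD libraries. The CDAHFD libraries were nearly level with each other and all well above ND. The mean went from 911 ± 33.3 to 1764 ± 0.848 (log2 fold change 0.95 with SE 0.05, limma adjusted p = 3.81e-15). The ratio of Tlr8 to Tlr7, both per kilobase of exon, was 0.145, 0.161 and 0.139 in ND and 0.934, 0.855 and 0.913 in CDAHFD libraries. The pair thus went from strongly unequal to nearly equal levels.

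Tlr13, which in mice detects bacterial ribosomal RNA (chromosome X, 106143204 to 106160493, plus strand), had 436, 493 and 444 normalised counts in ND and 1517, 1316 and 1464 in CDAHFD libraries. The groups were far apart. The mean rose 3.13-fold, from 458 ± 30.8 to 1432 ± 104 (log2 fold change 1.64 with SE 0.07, limma adjusted p = 4.59e-18), and 94.5% of tested genes had a lower log2 fold change.

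Tlr9, the receptor for unmethylated CpG DNA (chromosome 9, 106222598 to 106226883, plus strand), had 844, 841 and 791 normalised counts in ND and 960.0, 978 and 1020.2 in CDAHFD libraries. The gap between the diets was the narrowest among the rising endosomal receptors, with means of 825 ± 29.8 and 986 ± 30.9 (log2 fold change 0.26 with SE 0.06, limma adjusted p = 6.51e-04). Tlr3, which recognises paired strands of RNA and signals through Ticam1 instead of Myd88 (chromosome 8, 45395665 to 45411080, minus strand), had 799.6, 879.6 and 828 in ND and 694, 602 and 721 in CDAHFD libraries. All 3 CDAHFD values were below every ND value. The mean fell from 836 ± 40.6 to 672 ± 62.2 (log2 fold change -0.32 with SE 0.07, limma adjusted p = 4.28e-04). An antisense gene overlaps 381 exon bases of Tlr3, and since no strand setting was given, reads of the antisense gene and of Tlr3 cannot be told apart there.

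Unc93b1 (chromosome 19, 3935186 to 3949340, plus strand) had 3931, 4083 and 3854 normalised counts in ND and 6768, 6799.9 and 7099 in CDAHFD libraries. Every CDAHFD library exceeded every ND library. The mean rose from 3956 ± 116 to 6889 ± 183 (log2 fold change 0.80 with SE 0.04, limma adjusted p = 6.73e-16). Set against the summed level of the 5 endosomal receptors above, both per kilobase of exon, Unc93b1 stood at 1.73, 1.74 and 1.69 in ND and at 1.4, 1.49 and 1.47 in CDAHFD libraries. The ratio was lower in CDAHFD libraries, but its direction depended on which receptors were summed. With Tlr11 and Tlr12, other receptors that depend on Unc93b1 and are described further on, the ratio was 0.932, 0.919 and 0.881 in ND and 1.09, 1.14 and 1.13 in CDAHFD libraries, and thus higher.

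**Figure D2:**
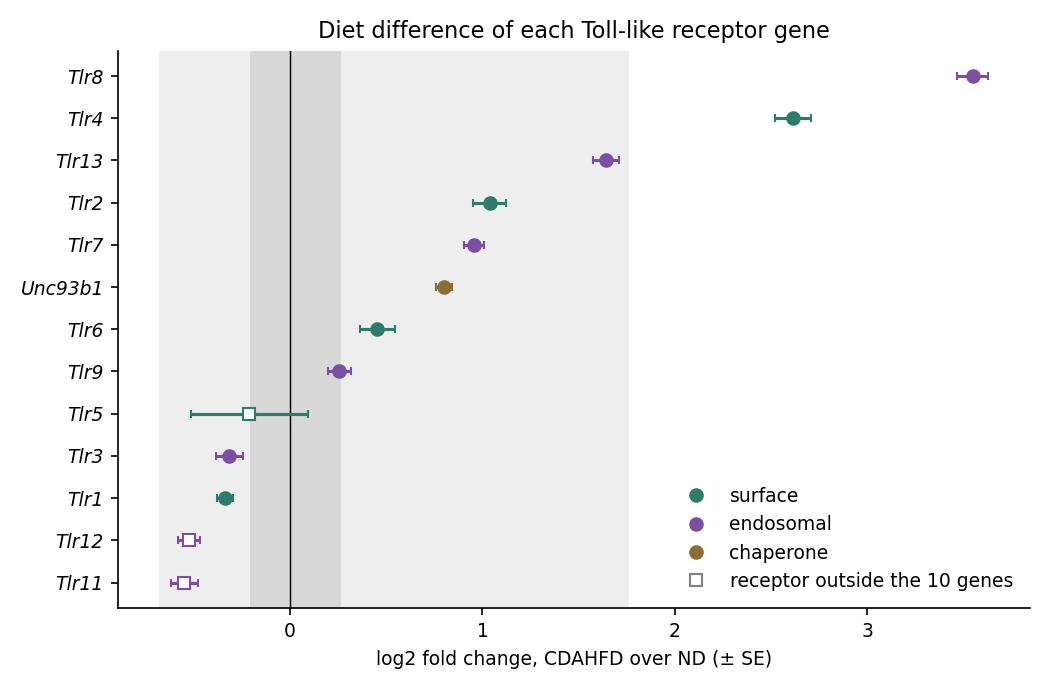
Log2 fold change (CDAHFD over ND, with its SE) of the 10 genes (filled circles) and of Tlr5, Tlr11 and Tlr12 (open squares), coloured by site, with the middle 50% of all tested genes in dark grey and the 5th to 95th percentile in light grey. Tlr8 and Tlr4 lie beyond the 95th percentile of 1.76, and surface and endosomal receptors are interleaved along the axis.

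The promoters of the endosomal receptor with the largest rise and of the one with the smallest are shown to let their letters be compared. The RefSeq promoter table (GRCm38.p6) held 7 of the 10 genes and had no entry for Tlr4, Tlr7 and Unc93b1. The 250 bases before each start were searched on both strands for AGGAAG and for TATAAA, the letters of the TATA box. Matches were taken at any position in the window, so a TATAAA match need not be a working TATA box. AGGAAG is only a form of the site that ETS factors such as the macrophage and B cell factor PU.1 bind. Other forms were not searched for, so a window without AGGAAG may still hold such a site. Capitals mark the matches. Tlr8 lies at chrX:167264330-167264579 (minus strand) and Tlr9 at chr9:106222348-106222597 (plus strand).

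Tlr8: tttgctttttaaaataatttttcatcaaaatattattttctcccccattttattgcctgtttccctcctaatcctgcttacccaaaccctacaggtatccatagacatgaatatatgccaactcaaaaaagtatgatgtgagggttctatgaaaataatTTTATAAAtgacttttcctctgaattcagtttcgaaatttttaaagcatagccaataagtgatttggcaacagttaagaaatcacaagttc

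Tlr9: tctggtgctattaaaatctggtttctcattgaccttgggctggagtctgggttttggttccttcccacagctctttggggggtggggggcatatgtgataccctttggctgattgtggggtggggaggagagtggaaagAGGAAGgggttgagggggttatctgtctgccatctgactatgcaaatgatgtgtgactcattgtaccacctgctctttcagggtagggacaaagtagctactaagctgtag

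The window of Tlr8 held TATAAA on both strands, in matches that overlap each other and begin 91 and 89 bases before the start, and no AGGAAG. That of Tlr9 held 1 AGGAAG, 111 bases before the start, and no TATAAA. Of all 32851 promoter windows of this length, 29.5% held AGGAAG and 12.4% held TATAAA. Among the 9 start sites of the 7 genes, 5 held AGGAAG (1 each of Tlr1, Tlr2, Tlr6, Tlr9 and Tlr13) and 2 held TATAAA (Tlr6 and Tlr8). The AGGAAG matches thus lay before Tlr1, which fell, as well as before genes that rose. Tlr11 and Tlr12, described further on, also fell and held AGGAAG 132 and 64 bases before the start. Some windows overlapped GENCODE exons of their own gene, by 211 bases at the second start of Tlr1, 178 for Tlr3, 159 for Tlr2 and 71 for Tlr13. The overlap was 49 bases at the second start of Tlr6, which held TATAAA, and 5 at the first start of Tlr1. The windows of Tlr8 and Tlr9 did not.

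Levels of different genes were compared per kilobase of exon, and places are among the 9 receptors above, without Tlr5, Tlr11 and Tlr12. In ND libraries Tlr1 led by far, with 918 ± 21.7 normalised counts per kilobase, followed by Tlr9 (237), Tlr7 (223), Tlr3 (160.5), Tlr13 (106), Tlr2 (105), Tlr6 (80.3), Tlr8 (33) and Tlr4 (30.4). The ranges of Tlr9 and Tlr7, of Tlr13 and Tlr2, and of Tlr8 and Tlr4 overlapped, so these neighbours were not separated. In CDAHFD libraries Tlr1 still led, at 727 ± 6.03 normalised counts per kilobase, and the order went on with Tlr7 (432), Tlr8 (389), Tlr13 (333), Tlr9 (284), Tlr2 (216), Tlr4 (186), Tlr3 (129) and Tlr6 (109.9). Only Tlr2 and Tlr4, and Tlr3 and Tlr6, overlapped there. Tlr8 moved from the eighth place to the third, and Tlr3 from the fourth to the eighth. Of the receptors left out, Tlr12 (404) and Tlr11 (269) lay above Tlr9 by mean in ND libraries, while in CDAHFD libraries they stood at 281 and 183 per kilobase.

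The contrast of surface with endosomal receptors came out differently for single genes and for sums. The median log2 fold change was 0.75 over the 4 surface receptors and 0.95 over the 5 endosomal receptors. With the other listed receptors, which are Tlr5 at the surface and Tlr11 and Tlr12 in the endosome, the order turned, with medians of 0.45 over 5 surface and 0.26 over 7 endosomal receptors. Summed per kilobase, the surface receptors reached 1137, 1142 and 1123 normalised counts in ND libraries, and 1289, 1211 and 1217 in CDAHFD libraries. This sum differed little between diets, by 1.09-fold. The endosomal sum was 750.5, 776 and 754 in ND and 1597, 1505 and 1598 in CDAHFD libraries, a difference of 2.06-fold, or 1.42-fold with Tlr11 and Tlr12. The surface share of both sums went from 59.9% ± 0.346 to 44.2% ± 0.806 (SD, n = 3 per diet), with no overlap between libraries. With Tlr5, Tlr11 and Tlr12 included, the share went from 44.3% ± 0.668 to 38% ± 0.801, a smaller shift in the same direction. Tlr1 made up 81% ± 1.38 of the surface sum in ND and 58.7% ± 1.81 in CDAHFD libraries. Without Tlr1, the other surface receptors rose 2.37-fold as a sum, and the surface share went the other way, from 22.1% ± 1.12 to 24.6% ± 1.13. Leaving out Tlr1 and including Tlr5, Tlr11 and Tlr12 were chosen after seeing the data. No p is given for these sums, because the genes were chosen with earlier results known.

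**Figure D3:**
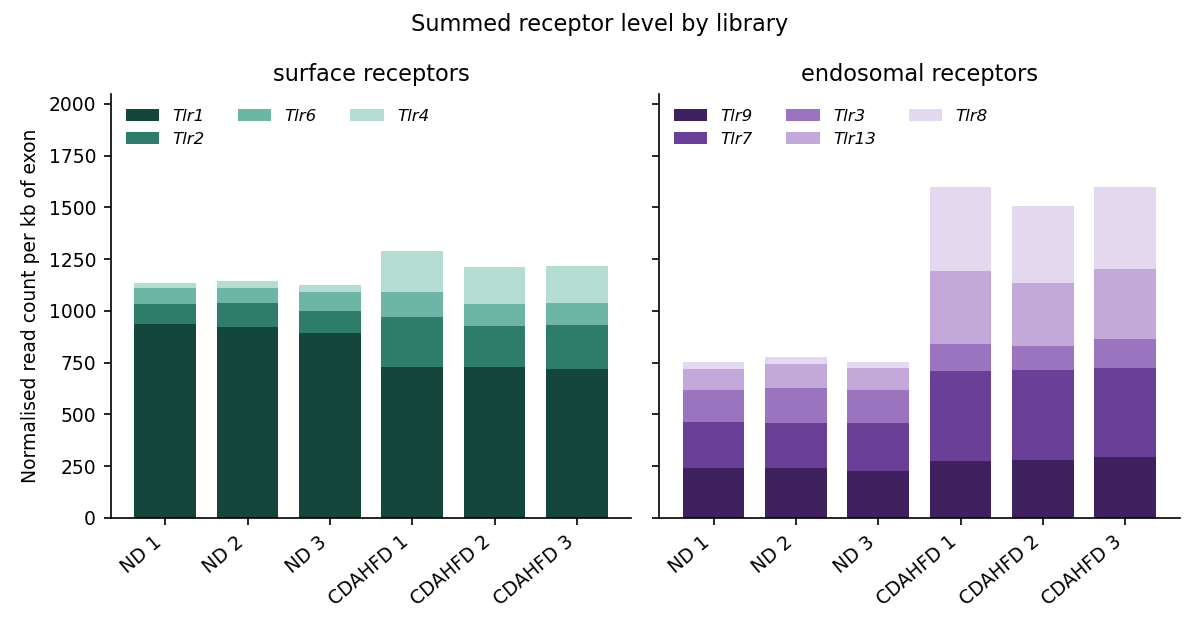
Stacked levels (normalised read counts per kilobase of exon) of the 4 surface receptors (left) and 5 endosomal receptors (right) in each of the 6 libraries. Tlr1 fills most of the surface bars in ND libraries (81%), and Tlr8 grows from 4.34% to 24.8% of the endosomal bars.

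Within each class the makeup shifted as well. Tlr4 went from 2.68% to 15% of the surface sum and Tlr2 from 9.28% to 17.4%. Of the sum of the 5 endosomal receptors, Tlr8 went from 4.34% to 24.8% and Tlr13 from 14% to 21.2%, while Tlr9 went from 31.2% to 18.1% and Tlr3 from 21.1% to 8.23%. Tlr7 kept a like share, at 29.4% ± 1.46 and 27.6% ± 0.979, and its libraries overlapped between diets. The ratio of Tlr7 to Tlr9, which compete for Unc93b1, was 0.910, 0.894 and 1.02 in ND and 1.57, 1.54 and 1.47 in CDAHFD libraries. The ratio of Tlr6 to Tlr1 was 0.0833, 0.0803 and 0.099 in ND and 0.163, 0.142 and 0.148 in CDAHFD libraries, so that Tlr1 outweighed Tlr6 in all 6.

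Of the 3 other mouse receptors that were listed, 2 fell and 1 was not called. Tlr11 and Tlr12, endosomal receptors for the profilin of protozoan parasites that also depend on Unc93b1, fell from 881 ± 76.2 to 600.5 ± 29.5 (log2 fold change -0.55 with SE 0.07, limma adjusted p = 1.51e-07) and from 1284 ± 33.5 to 893 ± 51.5 (log2 fold change -0.52 with SE 0.06, limma adjusted p = 9.91e-09). Tlr5, the surface receptor for flagellin, was low, at 26.1 ± 8.43 and 22 ± 4.55 normalised counts (limma adjusted p = 0.6). Counting these, the endosomal receptors held 3 falls among 7 genes and the surface receptors 1 fall among 5.

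Further along the pathway, of 66 genes listed by role 65 were in the table and tested, all but Tasl. Rises numbered 33 and falls 11, and 21 genes were not called, with a median log2 fold change of 0.13. Over all tested genes 24.6% were higher and 22.5% lower, which is the background for the counts by role as well. By median, the coreceptors and the folding genes stood highest, and the kinases and transcription factors stood near 0. Of 6 ligand coreceptors 5 rose, with a median of 1.26. Cd14, which hands lipopolysaccharide to Tlr4, had 149, 154 and 162 normalised counts in ND and 1890.4, 1761 and 1844 in CDAHFD libraries. All 3 CDAHFD values were over 10 times the ND values (log2 fold change 3.55 with SE 0.07, limma adjusted p = 2.27e-25). Ly96, the subunit that holds lipopolysaccharide on Tlr4, rose from 28.6 ± 4.06 to 99.1 ± 14.2 (log2 fold change 1.76 with SE 0.2). Relative to Tlr4 per kilobase, Cd14 went up, from 2.97 ± 0.302 to 5.69 ± 0.23, while Ly96 went down, from 0.923 ± 0.0837 to 0.524 ± 0.0907. Cd36, a scavenger receptor that serves as coreceptor of Tlr2 and Tlr6, rose from 926 to 2376 normalised counts.

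Cd180, a relative of Tlr4 best known from B cells, and Ly86, its partner, parted ways. Ly86 rose from 559.5 ± 26.7 to 1002 ± 125 (log2 fold change 0.83 with SE 0.08). Cd180 stood at 1165 ± 56.3 and 1075 ± 29.5 normalised counts (limma adjusted p = 0.0943). That p fell under 0.05 with equal totals (0.0435) and without CDAHFD replicate 1 (0.0489), both with Cd180 lower in CDAHFD libraries.

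Genes that fold the receptors and mature them in the endosome included 17 tested members, of which 12 rose and the other 5 were not called, with a median of 0.62. Hsp90b1, the chaperone gp96 that folds most Toll-like receptors, rose from 7896 ± 184 to 12215 ± 961 (log2 fold change 0.63 with SE 0.05). Cnpy3, its cofactor, rose from 1199 ± 68 to 1481 ± 121 (log2 fold change 0.30 with SE 0.06). Some lysosomal enzymes rose further, although not all enzymes of the list were called. Ctsb, a cathepsin, rose from 9214 ± 479 to 54460 ± 2852 (log2 fold change 2.56 with SE 0.04), and Lgmn, the asparagine endopeptidase that cuts endosomal receptors into their active form, from 1323 ± 45.5 to 6368 ± 97.6 (log2 fold change 2.27 with SE 0.04). Pld3, an exonuclease that limits the DNA and RNA reaching Tlr9 and Tlr7, rose from 4177 to 9138, and Slc15a4, a lysosomal transporter needed for signalling by both, from 891 to 1180.5 normalised counts.

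Of 6 TIR domain adaptors 4 rose. The remaining 2, Myd88 and Ticam1, are the main signalling adaptors of the receptors and were not called. Myd88 had 1554, 1656 and 1546 normalised counts in ND and 1585, 1730.3 and 1577 in CDAHFD libraries, and the diets overlapped (log2 fold change 0.04 with SE 0.05, limma adjusted p = 0.559). Ticam1, the adaptor of Tlr3, stood at 495 ± 13.3 and 521 ± 19.4 (limma adjusted p = 0.442). The bridging adaptors rose: Tirap, which links Myd88 to Tlr2 and Tlr4, went from 201 ± 17.9 to 304 ± 10.3 (log2 fold change 0.60 with SE 0.1), and Ticam2, which links Ticam1 to Tlr4, from 55.3 ± 12.4 to 90.6 ± 4.29 (log2 fold change 0.72 with SE 0.18). Sarm1 rose from 35 to 75 and Pik3ap1 from 1454 to 2007 normalised counts.

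The 16 kinases and ubiquitin ligases had a median of -0.05, with 3 rises and 6 falls. Irak4, the first kinase of the Myd88 complex, rose from 1104 ± 64.6 to 1478 ± 60.9 (log2 fold change 0.42 with SE 0.06). The ligase Peli1 fell from 9896 to 8123, and Tab1, an activator of the kinase Map3k7, from 721 to 556 normalised counts. Among 7 transcription factors 2 rose and 2 fell. Irf7, which drives interferon production downstream of Tlr7 and Tlr9, fell from 3100 ± 58.4 to 2395 ± 92.1 (log2 fold change -0.37 with SE 0.04, limma adjusted p = 4.51e-08), and Irf8 fell from 7515 to 6137. Irf5 rose from 1757 ± 122 to 1981 ± 72.4 (log2 fold change 0.17, limma adjusted p = 0.00661), a call that ended without ND replicate 1 (adjusted p = 0.0765) and in limma without trend and robust estimation (0.0935). Rela, an NF-kB subunit, rose from 3324 to 3694, a call that ended without CDAHFD replicate 2 (limma adjusted p = 0.0562) and in limma without trend and robust estimation (0.0827).

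Inhibitors of the pathway rose more often than not, 7 of 10, with 1 fall and a median of 0.38. Irak3, a kinase-dead brake on the Myd88 complex, had 119.9, 109 and 139.5 normalised counts in ND and 439, 344 and 422 in CDAHFD libraries. The lowest CDAHFD value was more than 2 times the highest ND value (log2 fold change 1.70 with SE 0.12, limma adjusted p = 6.98e-13). Rnf216 rose from 691 to 1149 and Dusp1, a phosphatase of MAP kinases, from 2021 to 2919 normalised counts.

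**Figure D4:**
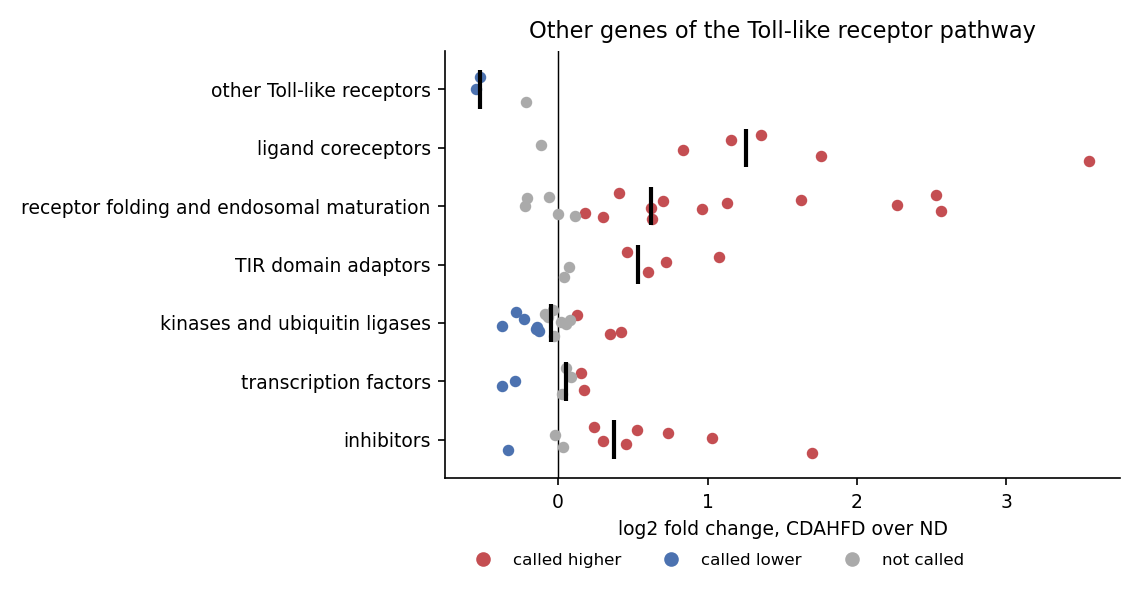
Log2 fold change (CDAHFD over ND) of 65 pathway genes by role, 1 point per gene coloured by its call, with a black bar at the median of each role. The medians are 1.26 for ligand coreceptors and 0.62 for folding and maturation genes, against -0.05 for kinases and ubiquitin ligases and 0.05 for transcription factors.

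Markers of cells known for these receptors moved in the same libraries. No listed marker found in the table was at 0 in any library. The counts of rises and falls stand beside 24.6% higher and 22.5% lower over all tested genes. CD8 T cell markers were abundant in both diets, with Cd8a at 32889 ± 177 and 27886 ± 256 normalised counts, and of 12 such markers 10 fell and the other 2 were not called (median -0.35, summed counts 169564 to 174995 in ND and 139791 to 145389 in CDAHFD libraries). All 12 macrophage markers rose (median 3.00), and their sum went from 17958 to 19798 in ND to 151329 to 167853 in CDAHFD libraries. Csf1r, the receptor that macrophages need to survive, rose from 3327 to 27030 normalised counts. Of 11 neutrophil markers 9 rose (median 1.68, sums of 3139 to 3166 and 10260 to 11355), and of 9 monocyte markers 5 rose and 4 fell (median 0.63, sums of 13092 to 14291 and 17871 to 18717).

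B cell and dendritic cell markers leaned the other way. Of 12 B cell markers 1 rose and 10 fell (median -0.37, sums of 60703 to 61915 in ND and 53532 to 56879 in CDAHFD libraries), and Ighm stood at 29256 and 30001 (limma adjusted p = 0.478). Of 9 plasmacytoid dendritic cell markers 1 rose and 6 fell (median -0.81, sums of 10322 to 10869 and 7656 to 7689). Ccr9, the most abundant of these, fell from 4104 to 2336 normalised counts, and the one that rose was Cox6a2, from 55.1 to 515. Of 10 conventional dendritic cell markers 1 rose and 8 fell (median -0.52), but their sum was higher in CDAHFD libraries (26624 to 28521 against 32912 to 34598) and the one gene that rose was Sirpa, which macrophages also express, from 1735 to 11851 normalised counts. Of 8 NK cell markers 3 rose and 2 fell (median 0.14, sums of 5345 to 5619 and 7602 to 7978). Those that rose were Prf1 (1803 to 2986 normalised counts), Klrk1 (943 to 2077) and Eomes (2025 to 2248), the most abundant of the list. The call of Eomes ended without ND replicate 2 (limma adjusted p = 0.0505) and in limma without trend and robust estimation (0.0634). Gzma and Klra4 fell, and Ncr1, Klrb1c and Klra8 were not called, so the higher sum does not stand for the list as a whole. All 7 erythroid markers in the table rose (median 3.13, sums of 741 to 801 and 7779 to 8071). The part of these cells in the receptor values was not tested.

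Set beside single markers chosen after their values were seen, the receptors differed. Tlr8 per Csf1r, both per kilobase, was 0.0578, 0.0574 and 0.0567 in ND and 0.0847, 0.082 and 0.0826 in CDAHFD libraries. Tlr8 thus rose more than Csf1r. Tlr4 per Csf1r was 0.0527 ± 0.00707 and 0.0397 ± 0.00214, a small decrease. Both directions depended on the marker. The log2 fold changes of the 12 macrophage markers ran from 1.87 to 3.79 (Vcam1), and Tlr8 (3.55) and Tlr4 (2.61) lay within that range. The other rising receptors fell far behind Csf1r, with ratios that went from 0.184 to 0.071 for Tlr13, from 0.388 to 0.0924 for Tlr7 and from 0.182 to 0.0462 for Tlr2. Tlr3 per Clec9a, a gene of the dendritic cells best known for Tlr3, went from 0.31 ± 0.0147 to 0.369 ± 0.0127. Tlr1 per Cd8a was 0.103, 0.102 and 0.0995 in ND and 0.0957, 0.0941 and 0.0945 in CDAHFD libraries, so that Tlr1 fell slightly more than Cd8a. The direction depended on the marker, since Cd8b1 fell more than Tlr1 (log2 fold changes -0.42 and -0.34). The median of the 12 CD8 T cell markers was -0.35.

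**Figure D5:**
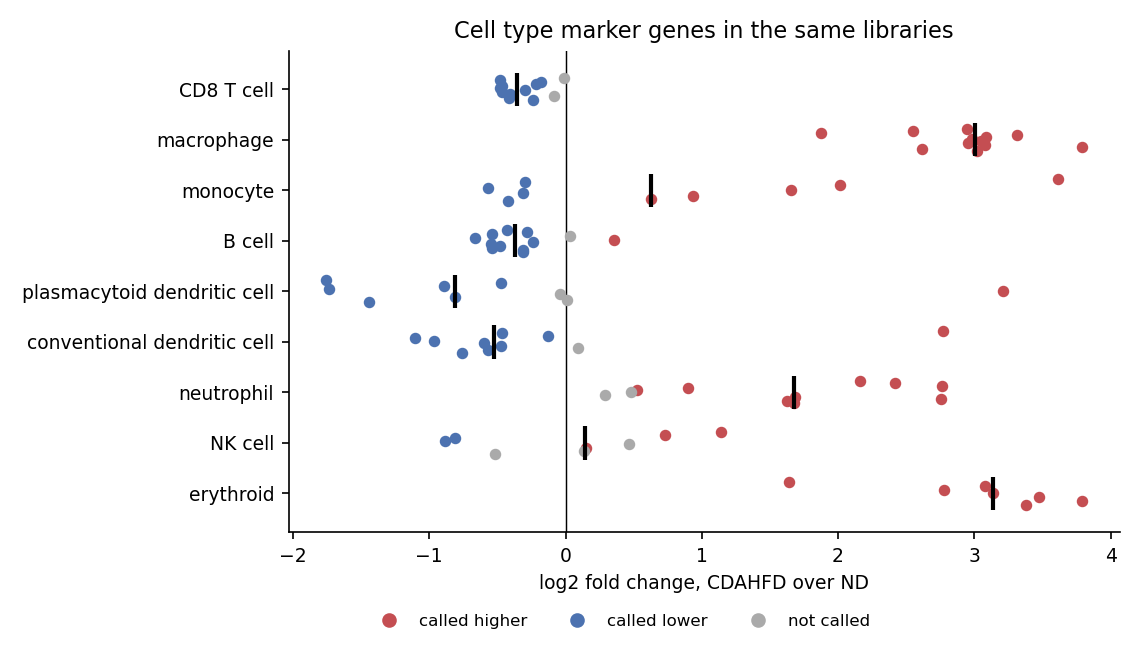
Log2 fold change (CDAHFD over ND) of cell type marker genes, 1 point per gene coloured by its call, with a black bar at the median of each list. The medians are 3.00 for macrophage markers (points from 1.87 to 3.79), 3.13 for erythroid (1.64 to 3.79) and 1.68 for neutrophil markers (0.29 to 2.76). Most B cell, dendritic cell and CD8 T cell markers lie below 0.

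The genes whose pattern over the 6 libraries came nearest to the strongest riser of each class were also named. Likeness was the Euclidean distance between log2 values, each taken relative to the gene's own ND mean, over protein-coding genes tested. This distance mainly follows the size of the diet difference. That the nearest genes rose as well was therefore set by how they were picked and is no separate result. Nearest to Tlr8 were Itgad, an integrin of splenic macrophages (distance 0.0765), Tmem26 (0.0771) and Mrc1, the mannose receptor (0.111). Mrc1 rose from 1417 ± 53 to 16145 ± 1124 normalised counts and Itgad from 932 ± 52.5 to 10819 ± 425. Nearest to Tlr4 were Fcgr4, an activating Fc receptor (distance 0.204), Hpgds, a prostaglandin D synthase (0.204), and the cytokine gene Il18 (0.219). Il18 rose from 118 ± 12.8 to 707 ± 31.7 normalised counts.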

How the data were processed

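RNA was sequenced from splenic CD8+ T cells in 6 libraries, 3 per diet. The deposited values are signal values, read counts per gene that the authors divided by 1 factor per library. Within each column all values were whole multiples of the smallest value above 0 (100% within 0.001), so whole reads could be recovered. The genome build was mm10 per the submitters' processing notes. Aligner, counter, annotation and strand setting are not given in the sources used here. Columns spell the diet CDHFD and were matched to the CDAHFD samples.

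Ensembl IDs were paired with symbols through a reference table of gene names (26147 of 26181 matched), and exon lengths, coordinates and transcripts from GENCODE M21 (GRCm38). limma 3.58.1 in R 4.3.3 (mean-variance trend, robust estimation) was fitted to log2(normalised count + 1) for all 15819 genes whose mean reached 10 normalised counts. Diet was the only term, and p-values were adjusted by Benjamini-Hochberg across those genes. It was tested on simulated data. The genes and lists were chosen with earlier results of these data known. Named were the 10 genes, a fixed set of 17 pathway genes, up to 3 called genes per pathway list by adjusted p, the 3 most abundant genes of a marker list and the nearest genes. Clec9a and Cox6a2 were named after their values were seen. The alternatives were edgeR 4.0.16 and DESeq2 1.42.0 on recovered reads, other pseudocounts, filters and scalings, limma without trend and robust estimation, a replicate block and each library left out.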

Additional observations from a re-analysis of the deposited data

How the results depend on the processing

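Under 16 alternatives, all 10 genes kept their direction and their call: 8 were higher and 2 lower in each, and the largest adjusted p was that of Tlr3, 0.0326. Over all genes, 6105 to 7819 were called, beside 7449 in the reported fit, with 7536 by edgeR and 6755 by DESeq2, which left 1 adjusted p as NA. With the replicate block 7250 genes were called. The numbers share no animal or day in the labels, and deviations of same-numbered libraries correlated at 0.0408, -0.0508 and 0.0623, so they did not pair the libraries. The median of the surface receptors less that of the endosomal receptors was -0.21 (range without 1 library -0.27 to -0.16). The difference in surface share of the summed level was -15.7 percentage points with all 4 surface receptors, 2.52 without Tlr1 and -6.32 with Tlr5, Tlr11 and Tlr12. Including these also turned the difference of medians to 0.198 and, for Tlr11 and Tlr12, that of the ratio of Unc93b1 to the endosomal sum from -0.265 to 0.208. These alternatives were chosen after seeing the data. Among single named genes, 9 calls were lost and 2 gained. Signs turned in 11 cases, all of genes that were not called: Bst2 (-0.0096 with equal totals, -0.036 to 0.070 without 1 library), Thy1 (0.0051 with trimmed mean of M-values, -0.035 to 0.019), Ighm (-0.0011 to 0.057), Myd88 (-0.0036 to 0.072) and Tlr5 (-0.38 to 0.028). The cause was not tested. At its ND depth, Tlr5 with about 26.1 normalised counts allows no firm statement.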

Other observations

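The 3 CDAHFD libraries differed less for Tlr7 than reads drawn at random would: values ran from 1762.7 to 1764.4 normalised counts, and the chi-square per degree of freedom was 4.26e-04, where read sampling alone gives about 1. Among the 20 combinations of gene and diet, 4 were below 1, the next lowest being Tlr1 in CDAHFD libraries at 0.17, and the highest was 7.68. This combination was picked after the values were seen.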
